A study of Mus musculus with 4 samples.

Results

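The genes described here encode enzymes that oxidise or reduce alcohols, aldehydes and ketones. They were taken by gene name, and the families were chosen with earlier results of these data known. The families are aldehyde dehydrogenase (Aldh), alcohol dehydrogenase (Adh), aldo-keto reductase (Akr1 and Akr7), carbonyl reductase (Cbr), Dhrs and Rdh short-chain dehydrogenase and prostaglandin reductase (Ptgr). This gave 74 of the 19938 genes with an own probe set on the array. Of the 74, 71 are protein-coding genes, while Adh6-ps1 and Rdh18-ps are transcribed pseudogenes and Dhrs13os is a noncoding RNA. Akr1b3 and Akr1b7 were not analysed here.

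The samples were RNA pools from the colon of male C57BL/6 mice, 11 weeks old, with 1 pool and 1 array in each of 4 groups. Heme surface and heme crypt cells came from 3 mice that ate a diet high in fat (40% of energy) and low in calcium with 0.5 µmol/g heme for 14 days, and control surface and control crypt cells from 4 mice on that diet without heme. All groups shared the fat-rich, calcium-poor diet, and surface and crypt cells were cut from frozen Swiss rolls of the middle colon by laser capture microdissection. With 1 array a group there was no replicate, no test and no error, and precision is limited by there being 1 array for each condition.

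Aldehyde dehydrogenases oxidise aldehydes to acids, while aldo-keto reductases, carbonyl reductases and prostaglandin reductases spend NADPH to reduce reactive carbonyls, among them the products of lipid peroxidation. Many Dhrs and Rdh enzymes interconvert retinol and retinal, and Aldh1a enzymes turn retinal into retinoic acid. Several of these genes are textbook targets of the transcription factor NRF2, and the intestinal epithelium both meets dietary carbonyls and handles dietary vitamin A.

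All levels below are RMA log2 values, and all differences are differences of log2 values, so that 1 is 2-fold. A gene was compared where at least 1 of the arrays in a comparison reached a floor of 5.75 (the median gene level over the 4 arrays), and it was called higher or lower at a difference of at least 1. Of the 74 genes, 51 reached the floor on at least 1 array, 39 on all 4 arrays, and 23 on none.

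Promoter sequences are given for some of the genes called higher in heme surface cells. These are the 3 with the largest differences, pairs with similar promoters, and the gene that matched a searched motif. The windows run from 250 bases before to 49 bases after the transcription start (the start being 0), are credited to RefSeq on GRCm38.p6, and are written along the gene's strand. In the first 3, which belong to the genes with the largest differences in surface cells, capitals mark the bases from the start onward.
Ptgr1 (chr4:58987029-58987328, minus strand): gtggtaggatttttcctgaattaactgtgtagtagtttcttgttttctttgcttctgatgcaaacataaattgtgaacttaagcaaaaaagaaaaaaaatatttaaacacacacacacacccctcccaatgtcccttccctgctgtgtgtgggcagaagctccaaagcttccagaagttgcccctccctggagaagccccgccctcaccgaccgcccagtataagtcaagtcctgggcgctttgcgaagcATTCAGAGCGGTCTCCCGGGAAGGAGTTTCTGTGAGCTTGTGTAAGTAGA
Cbr3 (chr16:93682969-93683268, plus strand): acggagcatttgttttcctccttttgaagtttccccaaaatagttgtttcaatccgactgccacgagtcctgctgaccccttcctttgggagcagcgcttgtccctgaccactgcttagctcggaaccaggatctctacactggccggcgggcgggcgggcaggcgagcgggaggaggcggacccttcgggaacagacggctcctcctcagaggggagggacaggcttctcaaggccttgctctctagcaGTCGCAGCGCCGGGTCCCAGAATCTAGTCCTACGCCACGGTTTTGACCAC
Akr1b8 (chr6:34353896-34354195, plus strand): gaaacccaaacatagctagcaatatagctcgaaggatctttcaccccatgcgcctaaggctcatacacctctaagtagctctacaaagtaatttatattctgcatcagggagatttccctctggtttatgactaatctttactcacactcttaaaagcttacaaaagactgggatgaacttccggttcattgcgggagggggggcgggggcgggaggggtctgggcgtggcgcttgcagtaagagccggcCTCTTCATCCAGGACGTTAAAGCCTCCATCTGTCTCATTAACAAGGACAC

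Aldh1a1 and Aldh1a7 lie next to each other on chromosome 19 with no other protein-coding gene between them. From 100 bases before the start, 142 of 150 promoter bases were the same (94.7%), while 35 of the 150 bases before that were (23.3%). The window of Aldh1a1 shown is that of the start most like Aldh1a7, of the starts the table lists. Only the 150 bases of the similar stretch are shown, and capitals mark the bases that differ.
Aldh1a1 (chr19:20601868-20602017, plus strand): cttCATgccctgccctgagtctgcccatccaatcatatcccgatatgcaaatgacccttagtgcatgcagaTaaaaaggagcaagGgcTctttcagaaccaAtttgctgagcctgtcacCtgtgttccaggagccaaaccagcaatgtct
Aldh1a7 (chr19:20727507-20727656, minus strand): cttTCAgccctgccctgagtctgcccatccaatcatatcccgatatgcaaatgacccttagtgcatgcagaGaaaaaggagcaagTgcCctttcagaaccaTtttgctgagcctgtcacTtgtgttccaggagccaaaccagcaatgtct

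Akr1c12 and Akr1c13 lie in a cluster on chromosome 13, and their promoters aligned with 284 identical bases and 12 different ones (95.9% of aligned bases). Capitals mark bases that differ or have no partner in the other gene.
Akr1c12 (chr13:4279350-4279649, minus strand): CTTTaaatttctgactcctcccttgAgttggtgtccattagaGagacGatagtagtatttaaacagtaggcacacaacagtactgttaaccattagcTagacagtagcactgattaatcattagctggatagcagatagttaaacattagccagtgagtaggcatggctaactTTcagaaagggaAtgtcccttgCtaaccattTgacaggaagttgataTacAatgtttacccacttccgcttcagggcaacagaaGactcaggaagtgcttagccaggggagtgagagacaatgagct
Akr1c13 (chr13:4190937-4191236, plus strand): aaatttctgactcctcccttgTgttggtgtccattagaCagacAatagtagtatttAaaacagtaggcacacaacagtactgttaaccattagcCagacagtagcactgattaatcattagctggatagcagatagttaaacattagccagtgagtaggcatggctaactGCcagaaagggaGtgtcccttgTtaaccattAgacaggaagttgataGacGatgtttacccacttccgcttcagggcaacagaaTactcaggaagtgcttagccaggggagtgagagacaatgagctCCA

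The antioxidant response element core bound by NRF2 was searched as TGACNNNGC on both strands. Of the 13 genes called higher in heme surface cells, 1 had it in this window (7.69%), against 14.0% of 27025 genes with a promoter in the table. That gene was Aldh9a1, where capitals mark the match, which begins at position -87.
Aldh9a1 (chr1:167349741-167350040, plus strand): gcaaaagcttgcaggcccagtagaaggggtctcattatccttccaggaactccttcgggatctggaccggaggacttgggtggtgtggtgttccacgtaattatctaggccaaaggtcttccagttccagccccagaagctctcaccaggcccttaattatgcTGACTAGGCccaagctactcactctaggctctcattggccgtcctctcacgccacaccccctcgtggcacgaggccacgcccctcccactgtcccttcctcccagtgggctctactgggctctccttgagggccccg
A looser core, TGANNNNGC, which includes every match to the first, was found for 6 of the 13 genes (46.2%) and for 45.0% of all genes. A match is a run of letters and not a measured binding site.

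The first question was how heme changed these enzymes at the luminal surface. In surface cells, 13 of the 51 genes compared were higher on heme and none was lower, which is 25.5% of them. Over all 10282 genes compared, 3.62% were higher and 2.01% lower. The median difference was 0.51 for the 51 genes and -0.02 for all genes, and 76.5% of the 51 against 48.5% of all genes lay above 0. The genes called were 4 Akr genes, 4 Aldh genes, 3 Cbr genes, Ptgr1 and Dhrs9, and no Adh or Rdh gene was called.

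**Figure D1:**
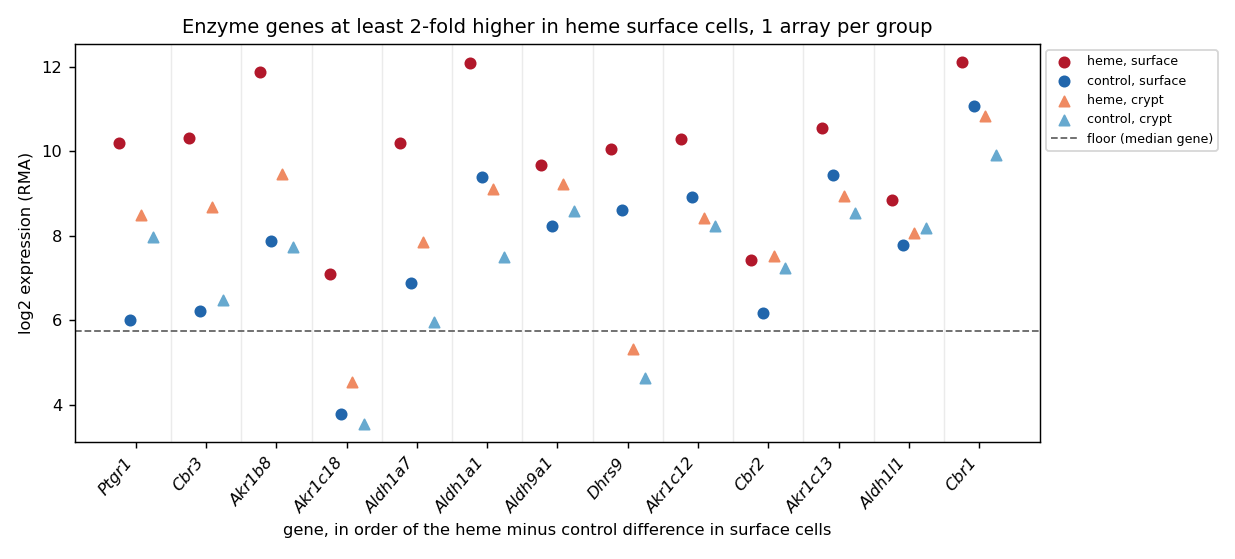
RMA log2 levels (vertical axis) of the 13 genes called higher in heme surface cells, 1 point per array, with heme left of control and surface left of crypt for each gene, and the floor of 5.75 dashed. Ptgr1, Cbr3 and Akr1b8 stand 3.99 to 4.20 above their control surface values, and Akr1c18 is above the floor on the heme surface array and below it on the others.

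The widest difference belonged to Ptgr1, which encodes a prostaglandin reductase that saturates the double bond of enals such as hydroxynonenal and of eicosanoids. Its level was 10.21 in heme surface cells and 6.01 in control surface cells, a difference of 4.20 (18.4-fold), at rank 7 of the 10282 genes. In crypt cells it was 8.50 on heme and 7.96 on control, a difference of 0.53. Ptgr1 was thus lowest in control surface cells and highest in heme surface cells, with both crypt values in between. The related reductase gene Ptgr2, whose enzyme acts on oxidised prostaglandins, had 8.95 in heme surface cells and 8.47 in control surface cells, and differed by 0.47.

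Carbonyl reductases reduce quinones, prostaglandins and other ketones, and 3 of the 4 Cbr genes were higher in heme surface cells. Among all genes compared there, 3.62% were higher and 2.01% lower. Cbr3 had 10.32 in heme surface cells and 6.21 in control surface cells, a difference of 4.11 (17.3-fold). In crypt cells Cbr3 had 8.68 on heme and 6.49 on control, a difference of 2.19 (4.55-fold) and rank 4 of the 10491 genes compared there. Both heme values of Cbr3 lay above both control values. Its neighbour Cbr1, with no protein-coding gene between them, had a smaller difference. Cbr1 was at 12.11 in heme surface cells against 11.07 in control surface cells (1.04), and at 10.83 in heme crypt cells against 9.91 in control crypt cells (0.92, under the size called). Cbr2 had 7.43 and 6.16 in heme and control surface cells (1.27), and 7.52 and 7.25 in heme and control crypt cells (0.28). Control surface cells had the lowest Cbr2 value, and the other 3 arrays lay within 0.28 of each other. Cbr4, part of a mitochondrial ketoacyl reductase, differed by 0.57 in surface cells and 0.04 in crypt cells.

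Aldo-keto reductases reduce aldehydes, sugars and steroid ketones. Of 15 such genes, 10 were compared in surface cells and 4 were higher, with a median of 0.95. Among all genes compared there, 3.62% were higher and 2.01% lower (median -0.02). Akr1b8, an aldose reductase-like enzyme that accepts lipid aldehydes, had 11.87 in heme surface cells and 7.88 in control surface cells, a difference of 3.99 (15.9-fold). In crypt cells Akr1b8 had 9.45 on heme and 7.72 on control, a difference of 1.73 (3.32-fold). The control values were close to each other and the heme surface value was the highest of the 4. Its neighbour Akr1b10 stayed near the floor, at 6.23 in heme surface cells, 5.78 in control surface cells, 5.85 in heme crypt cells and 5.64 in control crypt cells. Akr1a1, a broad aldehyde reductase, differed by 0.74 in surface cells, with 11.57 on heme and 10.83 on control.

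The Akr1c genes, which encode reductases of steroids and related ketones, form a run on chromosome 13. Akr1c18, the mouse progesterone-inactivating reductase, had 7.10 in heme surface cells and 3.77 in control surface cells, and 4.53 in heme crypt cells and 3.54 in control crypt cells. Only the heme surface value reached the floor, so the difference of 3.33 is uncertain in size, and on the scale log2(2^value + 32) it was 1.89. Akr1c12, further along the run, had 10.29 in heme surface cells and 8.91 in control surface cells (1.38), and 8.42 in heme crypt cells and 8.23 in control crypt cells (0.19). Akr1c13 had 10.56 in heme surface cells and 9.45 in control surface cells (1.11), and 8.94 in heme crypt cells and 8.55 in control crypt cells (0.39). Both were highest in heme surface cells and next in control surface cells. Just under the size called were Akr1c19 at 0.98 and Akr1c14 at 0.93. Akr1c6, Akr1c20 and Akr1c21 of the same run were below the floor on all 4 arrays.

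Among the 21 Aldh genes, 16 were compared in surface cells and 4 were higher, with a median of 0.41. For all genes compared there, the shares were 3.62% higher and 2.01% lower (median -0.02). Aldh1a1, which oxidises retinal and also lipid aldehydes, had 12.10 in heme surface cells and 9.39 in control surface cells, a difference of 2.71 (6.54-fold). It had 9.10 in heme crypt cells and 7.50 in control crypt cells, a difference of 1.60 (3.03-fold). Its neighbour Aldh1a7 had 10.21 in heme surface cells and 6.89 in control surface cells (3.32, 9.98-fold), and 7.85 in heme crypt cells and 5.95 in control crypt cells (1.90, 3.74-fold). The order of the 4 arrays differed between the neighbours only in the middle, where control surface cells were above heme crypt cells for Aldh1a1 and below them for Aldh1a7. The genes are near copies, and whether their probe sets also bind each other's RNA was not tested.

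The other 2 genes called were Aldh9a1, which acts in carnitine synthesis, and Aldh1l1, a folate-dependent dehydrogenase that releases formyl groups as carbon dioxide. Aldh9a1 had 9.69 in heme surface cells and 8.24 in control surface cells (1.45), and 9.22 in heme crypt cells and 8.58 in control crypt cells (0.64). Aldh1l1 had 8.84 in heme surface cells and 7.78 in control surface cells (1.06), and 8.06 in heme crypt cells and 8.18 in control crypt cells (-0.12). For Aldh1l1 the 2 crypt values were closer to each other than the 2 surface values. Aldh2, the mitochondrial acetaldehyde dehydrogenase, differed by 0.39 from a level of 10.93 in control surface cells, and the fatty aldehyde dehydrogenase gene Aldh3a2 by 0.29 from 9.11. Aldh3a1, a known target of the aryl hydrocarbon receptor, was below the floor on all 4 arrays, at 3.62 to 4.10.

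**Figure D2:**
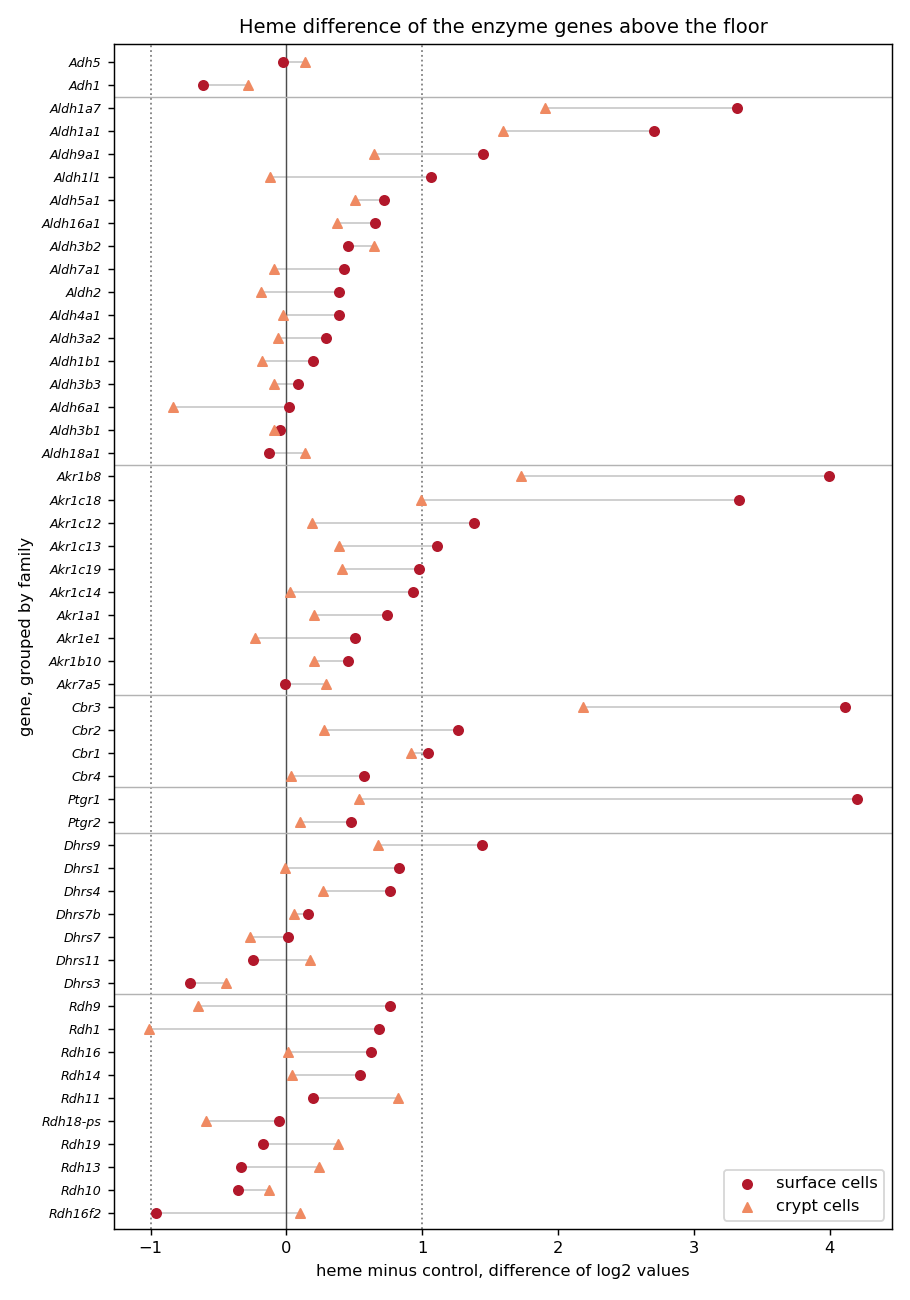
Heme minus control difference of log2 values (horizontal axis) for the 51 genes above the floor on at least 1 array, by family, with surface cells as circles and crypt cells as triangles; dotted lines mark 1 and -1. The surface circle lies right of the crypt triangle for 39 of the 51 genes, and the 4 genes called in crypt cells are Cbr3, Aldh1a7, Akr1b8 and Aldh1a1.

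In crypt cells the question was whether the same enzymes differed below the surface. Of 42 genes compared there, 4 were higher (9.52%) and none was lower, namely Cbr3, Aldh1a7, Akr1b8 and Aldh1a1. Over all 10491 genes compared in crypt cells, 1.78% were higher and 1.19% lower. The median was 0.16 for the 42 genes and 0.01 for all genes. All 4 were also called in surface cells, where each had the larger difference. The retinal reductase gene Rdh11 came closest among those without a call in surface cells, with 7.94 in heme crypt cells and 7.12 in control crypt cells (0.82). A probe set that Rdh11 shares with Pwwp3a, left out of the counts, differed by 0.08 there. At the other end of the 42 genes was Aldh6a1, an enzyme of valine breakdown, with 7.80 in heme crypt cells and 8.63 in control crypt cells (-0.83). In the same heme crypt array, 5 of 10 surface colonocyte markers were higher than in the control crypt array (median 0.93), and their summed level was 13.76 against 13.29. On control, the 4 genes called differed between surface and crypt cells by -0.28 (Cbr3), 0.94 (Aldh1a7), 0.15 (Akr1b8) and 1.89 (Aldh1a1, the 1 called). The part of surface cells in the crypt values was not tested.

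Dividing cell markers and markers of other tissue also moved between the crypt arrays. Of 9 dividing cell markers compared, 7 were higher on heme (median 1.47). Among the 12 genes marking smooth muscle and fibroblasts, lower values were called for 3 and higher ones for none (median -0.72), with a summed level of 11.73 in heme crypt cells and 12.56 in control crypt cells. Of 8 crypt base and progenitor markers compared, 1 was lower, Lgr5 (-1.07, median -0.30). Of 6 immune markers compared, 2 were lower (median -0.63), and of 7 endothelial markers 1 was lower (median -0.62). The 7 pan-epithelial markers had a median of -0.04 and none was called. The part of these shifts in the enzyme differences was not tested. Among the surface arrays, no smooth muscle, fibroblast, immune, endothelial or pan-epithelial marker was called, and the medians lay between -0.44 and 0.06. Nor was any crypt base and progenitor, dividing cell or surface colonocyte marker called there. The medians were -0.74 for 5 crypt base and progenitor markers, 0.25 for 5 dividing cell markers and -0.02 for 10 surface colonocyte markers. Of 7 goblet cell markers compared there, 1 was higher, Spink4 (1.56, median -0.12).

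**Figure D3:**
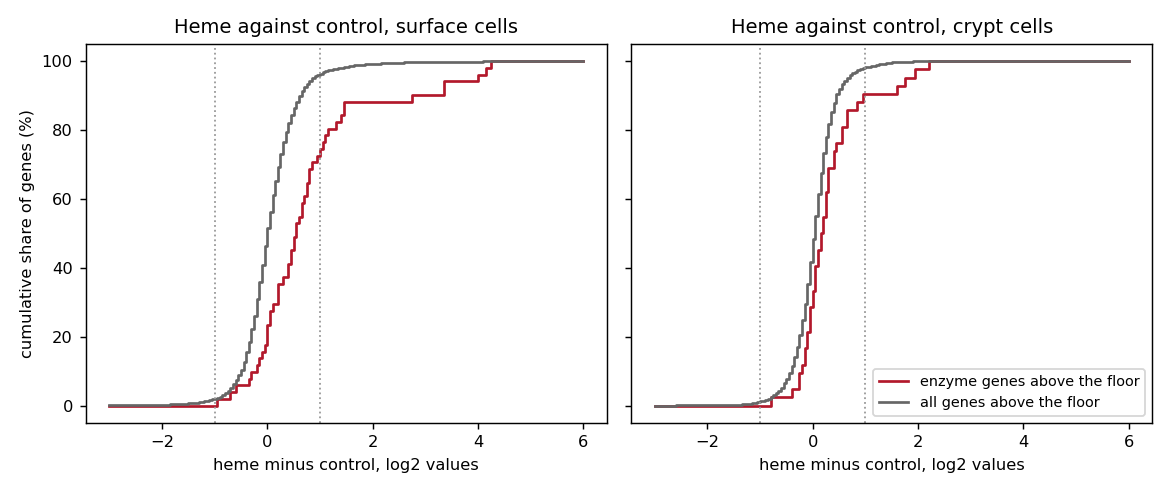
Cumulative share of genes in % (vertical axis) by heme minus control difference of log2 values (horizontal axis) in surface cells (left) and crypt cells (right), for the enzyme genes (red) and all genes (grey) above the floor. The red curve lies right of the grey one in most of both panels, with medians of 0.51 against -0.02 in surface cells and 0.16 against 0.01 in crypt cells.

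The heme difference of the surface arrays was then set against that of the crypt arrays, by subtraction of the second from the first. Of 51 genes, 10 had a value of at least 1 (19.6%) and 1 had a value of -1 or less (1.96%), against 3.29% and 2.17% of all 11147 genes compared. Ptgr1 led with 3.67, before Akr1c18 (2.34), Akr1b8 (2.26), Cbr3 (1.93) and Rdh1 (1.69). Aldh1a7 (1.42), Rdh9 (1.41), Akr1c12 (1.19), Aldh1l1 (1.19) and Aldh1a1 (1.11) followed. Rdh16f2 was the 1 gene on the other side (-1.06). For Akr1c18, Rdh1, Rdh9 and Rdh16f2 both crypt values were below the floor, so these sizes are uncertain. Akr1c18 and Rdh1 reached the floor on the heme surface array only. The heme difference was larger in surface cells for 76.5% of the 51 genes and for 47.8% of all genes. Across the 51 genes, Pearson's r between the surface and crypt differences was 0.74, and across all 11147 genes it was 0.41. The 4 of the 51 genes with the largest crypt differences, Cbr3, Aldh1a7, Akr1b8 and Aldh1a1, were called in both compartments. An r without them was not computed. Both r values are descriptions over genes of 4 arrays, and the same mice gave the surface and the crypt pool of each diet. Of the 51 genes, 42 were compared in crypt cells, and of the 11147 genes, 10491 were. For the rest, the crypt difference in r and in these shares lies between values below the floor.

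Surface against crypt cells on the control diet shows where these enzymes lay without heme. Of 49 genes compared, 10 were higher in surface cells (20.4%) and 6 lower (12.2%), against 12.0% and 13.5% of all 10864 genes. In such pools, fewer cells of a type and less RNA per cell cannot be told apart. The compartments carried their markers, since 9 of 10 surface colonocyte markers were higher in surface cells (median 4.49) and all 8 crypt base and progenitor markers compared were lower (median -2.61). Ribosomal protein genes had a median level of 9.56 in control surface cells and 10.79 in control crypt cells. Centred on them, the median of all genes moved from -0.05 to 1.24, and the split of these enzymes became 33 higher and 0 lower of 52 compared, while 63.7% of all genes were higher and 1.05% lower.

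Of 7 retinol-oxidising enzymes compared on control, 5 were higher in surface cells and none was lower (median 2.05). Over all genes compared, 12.0% were higher and 13.5% lower. This list was drawn up with results known. The 5 were Dhrs9 and Rdh9, Rdh16, Rdh19 and Rdh16f2, of which the Rdh genes lie in the run described next. All 5 had control crypt values below the floor and were compared through the surface array alone. Their sizes and the median are therefore uncertain, and the count is no separate evidence for the list. Dhrs9, a retinol dehydrogenase, had 10.05 in heme surface cells and 5.31 in heme crypt cells (4.75), and 8.61 in control surface cells and 4.63 in control crypt cells (3.98). It was higher in heme than in control surface cells, by 1.44. Both crypt values were below the floor, so the sizes against crypt are uncertain.

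Of the Rdh genes, 7 follow each other on chromosome 10 without another protein-coding gene or transcribed pseudogene between them, in the order Rdh1, Rdh9, Rdh16, Rdh18-ps, Rdh19, Rdh16f2 and Rdh7. They encode or derive from retinol and steroid dehydrogenases. Rdh18-ps had 9.37 in heme surface cells and 4.76 in heme crypt cells, and 9.43 in control surface cells and 5.35 in control crypt cells (4.08 on control). Rdh16 had 9.39 in heme surface cells and 5.08 in heme crypt cells, and 8.77 in control surface cells and 5.07 in control crypt cells (3.69 on control). Rdh9 had 9.20 in heme surface cells and 4.82 in heme crypt cells, and 8.44 in control surface cells and 5.47 in control crypt cells (2.98 on control). All 3 were above the floor in surface cells and below it in crypt cells. Rdh16f2 had 6.15 in heme surface cells and 5.16 in heme crypt cells, and 7.11 in control surface cells and 5.06 in control crypt cells (2.05 on control). On control, Rdh19 had 6.25 in surface cells and 4.57 in crypt cells (1.68). At the ends of the run, Rdh1 had 5.75 in both control compartments and Rdh7 was below the floor on all 4 arrays. Whether probe sets of these similar genes also bind each other's RNA was not tested.

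**Figure D4:**
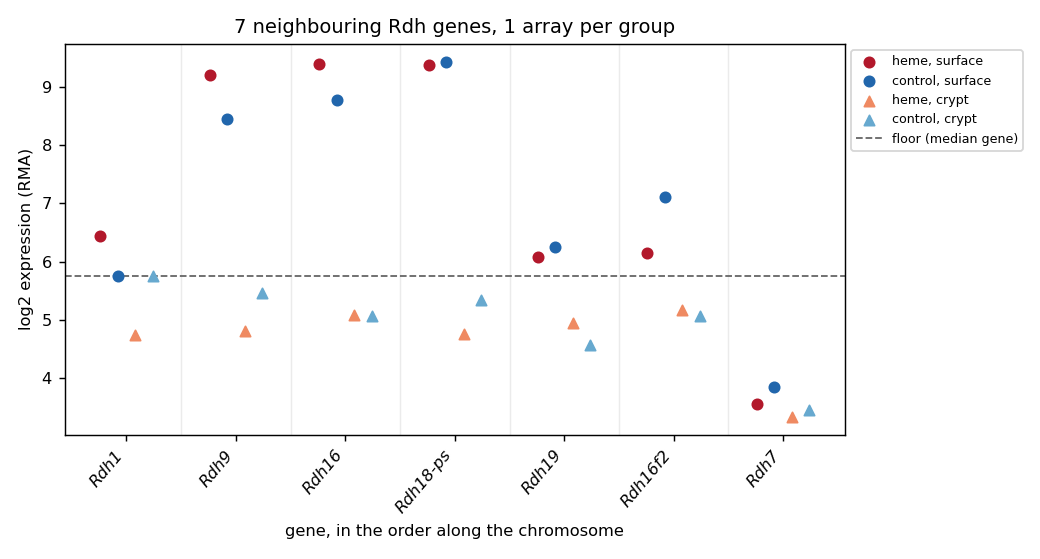
RMA log2 levels (vertical axis) of 7 neighbouring Rdh genes in their order along the chromosome, 1 point per array, with the floor of 5.75 dashed. The 5 inner genes have both surface values above the floor and both crypt values below it.

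Between heme and control surface cells, the differences within this run had both signs, and none was called. Rdh9 differed by 0.76, Rdh16 by 0.62 and Rdh18-ps by -0.06. For Rdh16f2 it was -0.96, the lowest heme difference in surface cells among the 51 genes. Rdh1 had 6.44 in heme surface cells and 5.75 in control surface cells (0.68), and 4.74 in heme crypt cells and 5.75 in control crypt cells (-1.01). The control crypt value of Rdh1 lay just under the floor, so it was not called.

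Dhrs11, a steroid and ketone reductase, had 10.37 in heme surface cells and 8.04 in heme crypt cells (2.33), and 10.62 in control surface cells and 7.87 in control crypt cells (2.75). It differed by -0.25 between heme and control surface cells. Dhrs7b, a peroxisomal reductase of ether lipid synthesis, was 1.49 higher in control surface cells than in control crypt cells. Aldh1a1, described above, was 1.89 higher in that comparison and Cbr1 was 1.16 higher. Rdh10, which makes retinal in the embryo, had 9.49 in control surface cells and 8.57 in control crypt cells (0.92).

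Lowest in surface against crypt cells on control was Aldh18a1, whose enzyme starts proline synthesis from glutamate. It had 6.40 in heme surface cells and 8.72 in heme crypt cells (-2.33), and 6.53 in control surface cells and 8.58 in control crypt cells (-2.06). Ptgr1 came second on the control diet (-1.96). Aldh5a1, which oxidises succinic semialdehyde, had 6.13 in heme surface cells and 7.36 in heme crypt cells (-1.23), and 5.41 in control surface cells and 6.85 in control crypt cells (-1.44). Dhrs7 had 6.64 in heme surface cells and 7.77 in heme crypt cells (-1.13), and 6.62 in control surface cells and 8.03 in control crypt cells (-1.41). Aldh1b1, a mitochondrial aldehyde dehydrogenase, had 7.95 in heme surface cells and 8.61 in heme crypt cells (-0.66, not called), and 7.76 in control surface cells and 8.79 in control crypt cells (-1.03). On control Cbr2 (-1.08) and Aldh1b1 were near the size called, and their sign turned to 0.14 and 0.19 under centring on ribosomal protein genes.

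On heme, 21 of 51 genes were higher in surface than in crypt cells (41.2%) and 6 were lower (11.8%). Over all 10698 genes compared, 15.3% were higher and 16.5% lower. The median was 0.68 for the enzyme genes and -0.05 for all genes. Genes that were surface-high on heme and close in both compartments on control included Akr1b8 (2.42 on heme and 0.15 on control) and Cbr3 (1.65 on heme and -0.28 on control). Akr1c18 was 2.57 higher in surface cells on heme, and was not compared on control, where both values were below the floor. Of the 51 genes, 31 had their highest value on the heme surface array, 8 on the heme crypt array, 7 on the control surface array and 5 on the control crypt array. The same split over all genes was not computed, so these counts have no background to be set against. Akr1c18 and Rdh1 are among the 51 through the heme surface array alone.

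**Figure D5:**
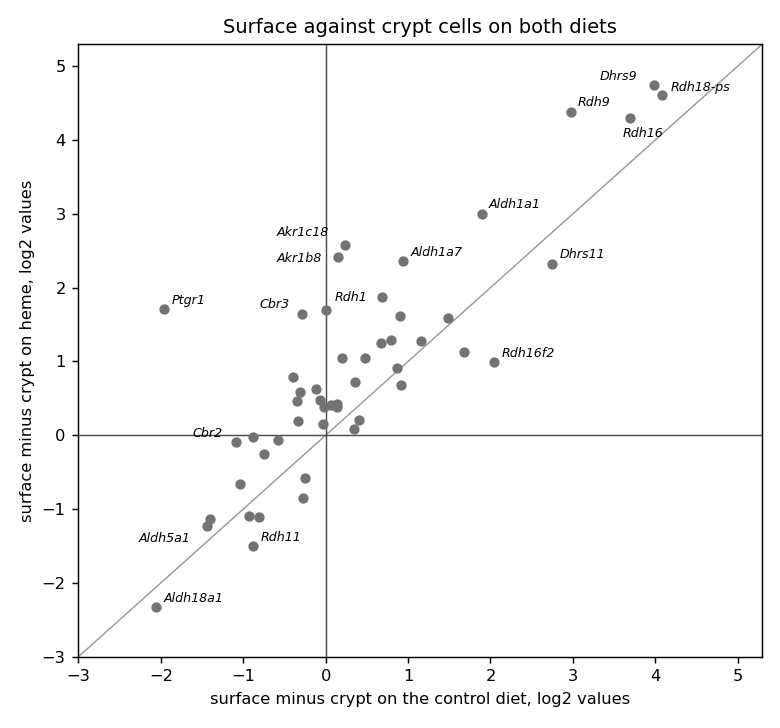
Surface minus crypt difference of log2 values on heme (vertical axis) and on the control diet (horizontal axis) for the 51 genes above the floor on at least 1 array, with the line of equality. Ptgr1 lies in the upper left, at 1.71 on heme and -1.96 on control, and Dhrs9, Rdh18-ps, Rdh16 and Rdh9 lie in the upper right on both diets.

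Classical alcohol dehydrogenases showed no call for heme. Adh1, the main cytosolic alcohol dehydrogenase and also a retinol dehydrogenase, was at 11.71 in heme surface cells, 12.33 in control surface cells, 12.29 in heme crypt cells and 12.57 in control crypt cells. Its heme difference was -0.61 in surface cells and -0.29 in crypt cells. Adh5, the glutathione-dependent formaldehyde dehydrogenase, differed by -0.02 in surface and 0.14 in crypt cells. The other 5 Adh genes were below the floor on all 4 arrays.

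Grouped by role instead of family, the same genes gave counts that overlap with those above, from lists drawn up with results known. The counts are for heme against control in surface cells, where 3.62% of all genes were higher and 2.01% lower. Of 8 reductases of lipid aldehydes, enones and quinones, 4 were higher (median 0.89), and of 5 steroid and prostaglandin aldo-keto reductases compared, 3 were higher (median 1.11). Of 8 retinol-oxidising enzymes compared, 1 was higher (median 0.22), and of 5 retinal-reducing enzymes none was called (median 0.20). Dhrs3, which reduces retinal to retinol and is a known retinoic acid target, had 8.02 in heme surface cells and 8.73 in control surface cells (-0.71). Of the 4 retinal-oxidising genes, Aldh1a1 alone reached the floor, and Aldh1a2, Aldh1a3 and Aldh8a1 were below it on all 4 arrays.

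Genes around these pathways that are no members of the families were examined as well, from lists drawn up with results known. Over all genes compared, 3.62% were higher and 2.01% lower in surface cells, and 1.78% and 1.19% in crypt cells. Of 10 retinoid binding, storage, breakdown and receptor genes compared in surface cells, 1 was higher on heme and none lower (median -0.29). It was Rbp2, the intestinal retinol-binding protein, with 10.68 in heme surface cells and 8.88 in control surface cells (1.80), and 6.56 in heme crypt cells and 5.21 in control crypt cells (1.35). In crypt cells 1 of 9 was higher, again Rbp2, and 1 lower, Rarres2 (-1.05), which encodes chemerin. The 3 Cyp26 genes, whose enzymes break down retinoic acid, and its receptor gene Rarb were below the floor on all 4 arrays.

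Of 21 other carbonyl, quinone and lipid peroxide handling genes compared in surface cells, 8 were higher on heme and none lower (median 0.37). This list too was drawn up with results known. Over all genes compared there, 3.62% were higher and 2.01% lower (median -0.02). The quinone reductase gene Nqo1 had 10.65 in heme surface cells and 6.56 in control surface cells (4.09). Gsta4, whose transferase conjugates hydroxynonenal to glutathione, differed by 1.82, Esd, an esterase of formaldehyde clearance, by 1.80, the peroxidase gene Gpx2 by 1.56, and Glo1, the methylglyoxal-clearing glyoxalase, by 1.24. Ephx2 (1.10), Nqo2 (1.03) and Hsd17b4 (1.02) were also higher. In crypt cells Nqo1 was the 1 gene of 21 called, at 1.34 (median -0.04), while 1.78% of all genes were higher and 1.19% lower. Between surface and crypt cells Gsta4 differed by 0.47 on heme, which was not called, and was lower in surface cells on control (-1.42).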

How the data were processed

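The authors deposited 1 RMA value on the log2 scale for each probe set, per the submitters' processing notes; which version and which arrays entered RMA is not given in the sources used here. RNA of 3 heme-fed or 4 control mice was pooled by the authors, per the labels' protocols. Of 35556 probe sets, 21789 had 1 gene symbol, 1621 several and 12146 none in the platform annotation; symbols were updated by gene identifier to GRCm38.p6 for 21698. A gene is the mean of its single-symbol probe sets, and 2 of the 74 genes had several. With 1 array a group, a size rule replaced a test: at least 2-fold with a floor of 5.75 on at least 1 array compared. Values on all 4 arrays were given for each gene called for heme and the 6 largest differences each way for surface against crypt on control, and any member could be named. Members, role lists and rules were chosen with earlier results of these data known. The 7 alternatives are given in the closing section. Python 3.11.15, numpy 2.4.6, pandas 2.3.3, Biopython 1.88, matplotlib 3.10.9, R 4.3.3 and limma 3.58.1 were used. Promoters were matched by symbol for 60 of the 74 genes.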

Additional observations from a re-analysis of the deposited data

Results flagged for a closer look

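Ptgr1 passed the size rule in opposite directions on the 2 diets. Its surface minus crypt difference was 1.71 on heme, from 10.21 in heme surface cells and 8.50 in heme crypt cells, and -1.96 on the control diet, from 6.01 in control surface cells and 7.96 in control crypt cells. Each value rests on 1 pool, and the difference between the diets was not tested. Centred on ribosomal protein genes the values were 2.87 on heme and -0.73 on control, so that the control value no longer reached the size called. No group has enough arrays for a search for outlying samples.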

How the results depend on the processing

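Of 70 recounts of called genes over 7 alternatives, 62 stayed within 1.5 times of the reported count. The 62 include counts of 0 that stayed 0. Among the 7 were a floor raised by 1, the probe set with the highest mean, and platform symbols. The last 2 gave the reported count every time, and only 2 of the 74 genes had several probe sets to choose from. Centring on ribosomal protein genes, which moved the median of all genes to 1.16 on heme and 1.24 on control, gave 43 higher and 1 lower for surface against crypt on heme, and 33 higher and 0 lower on control. Under that centring 59.4% of all genes were higher on heme and 63.7% on control. On the scale log2(2^value + 32) the lower counts became 2 on heme and 3 on control, and the lower count of the difference between compartments became 0. With no floor, 1 gene, Rdh1, was lower in heme crypt cells. Signs turned under ribosomal protein centring for Dhrs7 (0.028), Adh5 (0.07) and Akr7a5 (0.05) on heme and for Aldh1b1 (0.19) and Cbr2 (0.14) on control. For heme in surface cells, Aldh1l1 (0.96) and Cbr2 (0.98) lost their call on the scale log2(2^value + 32) and Cbr1 (0.87) after cyclic loess, while ribosomal protein centring added Akr1c19. The 4 crypt calls were kept under all 7 alternatives, and ribosomal protein centring, which put the median of all genes there at 0.17, added Cbr1 (1.05). No paired analysis was possible because each group has 1 array. Values under the floor limit the sizes for Akr1c18, Dhrs9 and the Rdh genes. The causes of these changes were not tested.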

Other observations

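Probe sets with several symbols were left out of all counts, and 2 of them name a gene of these families. The set shared by Aldh3b2 and Aldh3b3 had 7.74 in heme surface cells, 7.22 in control surface cells, 7.24 in heme crypt cells and 6.79 in control crypt cells, and the heme differences were 0.52 and 0.46. The set shared by Pwwp3a and Rdh11 differed by -0.53 in surface cells, where the own probe set of Rdh11 differed by 0.20, and by 0.08 against 0.82 in crypt cells. The 3 own probe sets of Aldh3b3 lay far apart, at 8.85, 4.49 and 4.28 in heme surface cells against 8.95, 4.67 and 3.74 in control surface cells, so its mean near the floor describes none of them.

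Within the aldo-keto reductase run on chromosome 13, the genes above the floor, Akr1c14, Akr1c18, Akr1c13, Akr1c19, Akr1c12 and Akr1e1, differed by 0.51 to 3.33 between heme and control surface cells. Akr1c18, Akr1c13 and Akr1c12 were called higher, and Akr1c14 (0.93), Akr1c19 (0.98) and Akr1e1 (0.51) were not. Of all genes compared there, 3.62% were called higher and 48.5% lay above 0. Akr1c18 reached the floor on the heme surface array only, so its 3.33, the top of the range, is uncertain in size. In the same run Akr1c6, Akr1c20 and Akr1c21 between Akr1c12 and Akr1e1 were below the floor on all 4 arrays.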
